A study of Mus musculus with 15 samples.

Results

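The genes followed here were 10 that interferon-gamma is known to induce. Of these, 4 encode guanylate-binding proteins (Gbp2, Gbp3, Gbp7 and Gbp9), 4 encode immunity-related GTPases (Irgm1, Irgm2, Igtp and Iigp1), 1 encodes the transcription factor IRF1 and 1 encodes the serine protease inhibitor SERPINA3G. They were chosen by name, and each name matched 1 of the 45232 Ensembl gene rows of the count table. All 10 passed the filter on low counts, which left 17834 genes to test.

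RNA-seq was performed on CD45.2+ LSK cells of C57BL/6 bone marrow, the lineage-negative, Sca-1-positive, c-Kit-positive fraction that holds hematopoietic stem and multipotent progenitor cells. There were 15 libraries in 5 groups of 3: WT cells (B28, B30 and B31), and mutant cells from recipients given vehicle (A1, A3 and A4), AG221 (A8, A9 and A10), ruxolitinib (A14, A16 and A17) or combined therapy (B24, B25 and B26). By the study's methods the cells of the last 4 groups carried conditional Jak2 V617F and Idh2 R140Q alleles, switched on by Cre under the interferon-responsive Mx1 promoter with polyI:polyC, and were transplanted with CD45.1 support marrow into irradiated CD45.1 hosts. The labels give 60 mg per kg ruxolitinib, an inhibitor of the JAK1 and JAK2 kinases, and 40 mg per kg AG221, an inhibitor of mutant IDH2, by gavage for 21 to 28 days, with the last dose about 1.5 hours before sacrifice. Whether the WT mice carried Cre, received polyI:polyC or were transplanted is not given in the sources used here, nor is the meaning of the letters A and B or whether each library is 1 mouse. The p-values therefore measure the spread between these libraries.

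Interferon-gamma binds a receptor built from IFNGR1 and IFNGR2 and acts through the kinases JAK1 and JAK2, and its signal reaches promoters at GAS elements. IRF1, itself induced by interferon-gamma, and factors downstream of type I interferon bind ISRE elements, so many of these genes answer to both kinds of interferon. The GTPases gather on vacuoles that hold intracellular pathogens and help to disrupt them. In hematopoietic stem cells interferon is known to drive entry into the cell cycle, and Sca-1, encoded by Ly6a and used in the sort, is itself an interferon-inducible protein.

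RefSeq promoter windows, from 250 bases before to 50 bases after the start, were scanned for 8 of the genes (GRCm38.p6), and none was scanned for Gbp9 or Iigp1. The stretches that carry a GAS match, TTCNNNGAA (the same on both strands), or an ISRE match, GAAA and GAAA with 2 free bases between them (on either strand), are shown 5′ to 3′ on the strand of the gene because most of the 10 genes moved together across the libraries. Capitals mark the matched letters. Gbp2 (chr3:142620597-142620620, plus strand), Gbp3 (chr3:142559992-142560021, plus), Gbp7 (chr3:142530215-142530307, plus), Irgm1 (chr11:48871428-48871457, minus), Irgm2 (chr11:58214887-58214937, plus), Igtp (chr11:58199496-58199546, plus), Irf1 (chr11:53769909-53769947, plus) and Serpina3g (chr12:104236099-104236137, plus) read:
Gbp2: cttttagTTTCACTTTCactgtct
Gbp3: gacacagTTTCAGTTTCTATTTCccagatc
Gbp7: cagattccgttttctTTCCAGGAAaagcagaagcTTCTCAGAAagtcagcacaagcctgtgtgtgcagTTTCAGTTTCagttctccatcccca
Irgm1: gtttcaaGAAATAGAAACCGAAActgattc
Irgm2: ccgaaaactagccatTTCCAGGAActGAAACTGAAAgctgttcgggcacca
Igtp: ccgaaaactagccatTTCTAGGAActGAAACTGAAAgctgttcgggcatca
Irf1: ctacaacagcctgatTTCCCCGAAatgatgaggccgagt
Serpina3g: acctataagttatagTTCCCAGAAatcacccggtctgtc

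A GAS match was found in the windows of 5 of the 8 genes (Gbp7, Irgm2, Igtp, Irf1 and Serpina3g) and an ISRE match in those of 6 (Gbp2, Gbp3, Gbp7, Irgm1, Irgm2 and Igtp), with both in 3. Over all 32851 windows of the same length, 8.3% held a GAS match, 3.44% an ISRE match and 0.454% both. These shares count windows, not genes: the 8 genes have 10 windows, and the second windows of Gbp3 and Irf1 held no match. Gbp3 and Irgm1 each held 2 ISRE matches that overlap each other, and Gbp7 held 2 GAS matches; no GAS match overlapped an ISRE match. The first base of each match lay between 24 and 106 bases before the RefSeq start. Of the Gbp2 stretch 19 of 24 bases, and of the Irgm1 stretch all 30, lie in an exon that Ensembl annotates for a longer transcript. The Igtp and Irgm2 stretches, from neighbouring genes on chromosome 11, were identical at 49 of 51 bases and differed by T19C and T49C, counted from 1 at the 5′ end with the Igtp base first. T19C falls in the free letters of the GAS match. A match describes letters only and was not tested for binding in these cells.

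**Figure D1:**
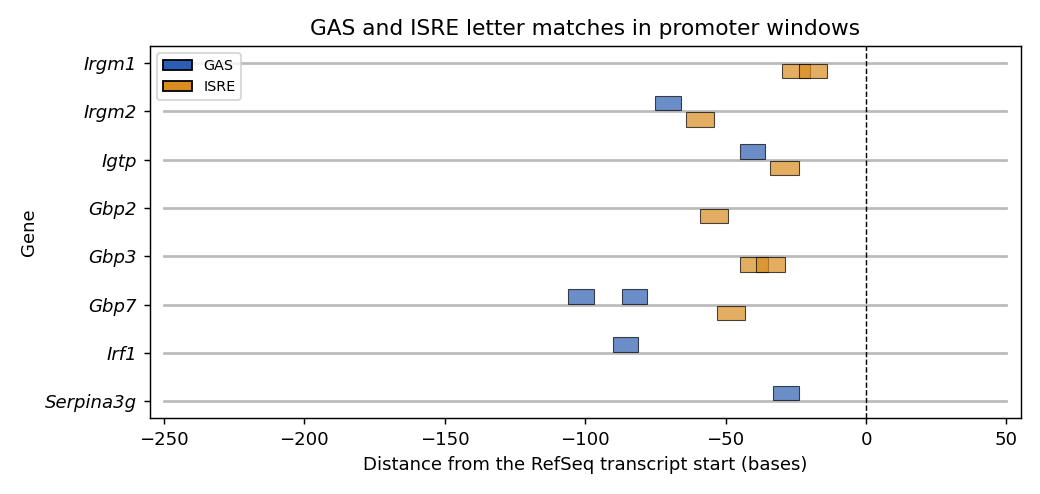
Position of GAS (blue) and ISRE (orange) letter matches in the RefSeq promoter windows of 8 of the genes, against the distance in bases from the RefSeq start (dashed line). Matches of Irgm2 and Igtp have the same order and spacing, and those of Gbp3 and Irgm1 overlap each other.

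Total counts were between 18836625 and 32174287 per library. On the second principal component of the log2 CPM values, with 16% of the variance, AG221 A8 (-59.4), AG221 A10 (-52.2) and ruxolitinib A16 (-39.9) lay lower than their group mates, and several results are also given without them. On the first, with 45.9%, it was AG221 A9 (26.3) that lay apart from A8 (102) and A10 (87.9), and the vehicle libraries ran from -8.02 (A1) to 49.1 (A4) on the second. The WT libraries expressed Xist at 455 to 511 CPM and Ddx3y at no more than 3 counts, while in the other 12 libraries Xist was at no more than 19.5 CPM and Ddx3y at no less than 124 CPM, so sex moves with every comparison against WT and cannot be told apart from it. The letter B is shared by WT and combined therapy, and every comparison of either with the groups of letter A also crosses the letters. The 10 LSK markers, Kit, Ly6a and Cd34 among them, summed to 4152 to 4579 CPM in WT and 2126 to 3561 CPM in the other libraries, and none was at 0 throughout a group.

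In vehicle-treated mutant cells, edgeR called 5 of the 10 genes higher than in WT (Serpina3g, Gbp3, Iigp1, Igtp and Gbp7) and none lower, while Gbp9 was called lower with DESeq2 (adjusted p = 0.0283), without the filter on low counts (0.0228) and without vehicle A1 (0.0425). Among all genes, 15.4% were called higher and 17.9% lower in this comparison (33.3% in all). The median log2 fold change was 0.47 over the 10 genes and -0.09 over all genes tested. The number of calls was 2 without WT B30, where 10.5% of all genes were called, 3 without WT B28 (22.9%) or B31 (30.02%) and 6 without vehicle A3 (30.9%). With ruxolitinib, alone or combined, Iigp1, Igtp, Irgm1, Gbp7 and Serpina3g were lower in all 6 libraries than in any vehicle or AG221 library. Because the RNA is from bulk sorted cells, fewer cells that express a gene and less of its RNA per cell cannot be told apart.

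**Figure D2:**
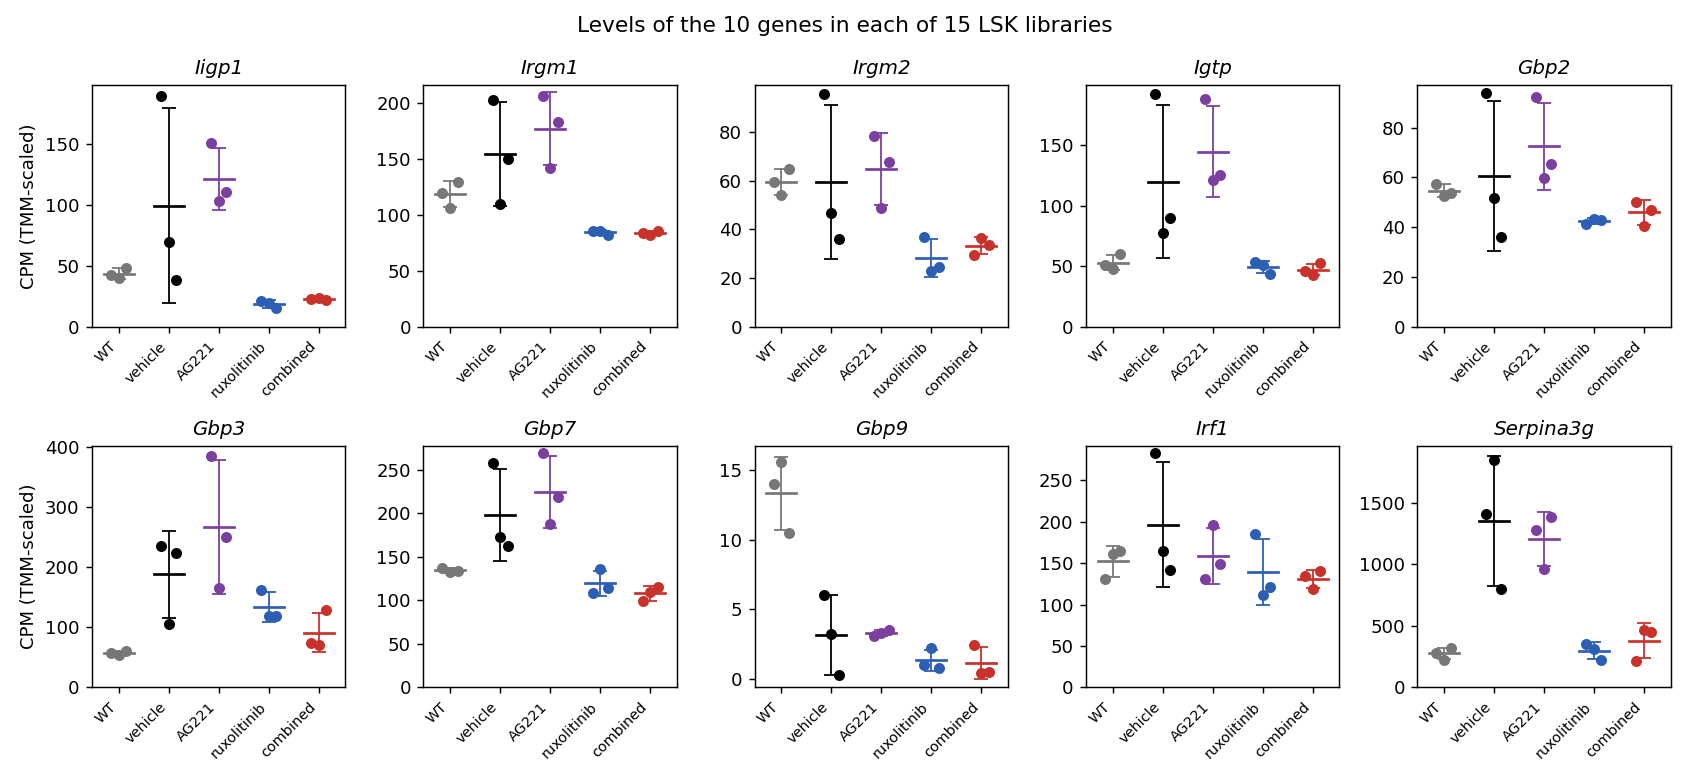
CPM (counts scaled by TMM to a common library total, linear axis with its own range in each panel) of each gene in every library, by group, with the group mean (line) and SD (bar, n = 3). The 3 vehicle libraries spread widely for most genes, and for Iigp1, Irgm1, Igtp, Gbp7 and Serpina3g the 6 libraries with ruxolitinib lie below all 6 vehicle and AG221 libraries.

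Iigp1, which encodes an effector IRG protein that coats pathogen vacuoles, showed the widest swing of the IRG genes. It was at 42.3, 40.1 and 48.4 CPM in the WT libraries and at 190.0, 69.9 and 38.6 CPM with vehicle (A1, A3 and A4). With AG221 it was at 151, 103 and 110.4 CPM, with ruxolitinib at 21.2, 19.7 and 15.3 CPM, and with combined therapy at 22.5, 23.3 and 21.8 CPM. All 3 AG221 libraries were above WT and all 6 with ruxolitinib were below WT, while vehicle A4 lay below every WT library. The vehicle to WT difference was 1.19 on the log2 scale (SE 0.41, adjusted p = 0.0381) and was 0.34 without vehicle A1 (adjusted p = 0.32); leaving out any 1 WT library also lost the call (0.0597 to 0.122). Ruxolitinib-treated cells were 5.31-fold lower than vehicle (log2 fold change -2.41 ± 0.42 (SE), adjusted p = 0.112). With combined therapy the gene was 4.41-fold lower than with vehicle (adjusted p = 0.00544).

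Igtp (chr11:58199556-58207591, plus strand, GRCm38) encodes IRGM3, a regulator of the effector IRG proteins. It was at 50.8, 48.0 and 60.0 CPM in WT and at 192, 77.2 and 89.7 CPM with vehicle. AG221 libraries were at 188, 121 and 126 CPM, ruxolitinib libraries at 53.6, 50.8 and 43.7 CPM, and combined libraries at 46.1, 43.1 and 52.5 CPM. Every vehicle and AG221 library was above all WT libraries, and the levels with ruxolitinib overlapped those of WT. The gene was 2.26-fold higher with vehicle than in WT (log2 1.18 ± 0.29 (SE), adjusted p = 0.011; 0.0536 without WT B30) and 2.53-fold lower with combined therapy than with vehicle (adjusted p = 0.00889). Of its exon length, 8.01% is shared with Irgm2 on the same strand, and reads from there cannot be told apart.

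Irgm1 (chr11:48861968-48871683, minus strand) and Irgm2 (chr11:58199618-58222782, plus) encode the other regulatory members of the family. Irgm1 was at 119, 106 and 129 CPM in WT, at 203, 109.8 and 149.8 CPM with vehicle and at 206, 142 and 182 CPM with AG221. It was within 81.8 to 85.7 CPM in all 6 libraries with ruxolitinib, below every other library. Combined therapy was 1.84-fold below vehicle (log2 -0.88 ± 0.19 (SE), adjusted p = 0.00932; -0.64 and 0.0541 without vehicle A1). Irgm2 was at 59.7, 54.2 and 64.9 CPM in WT and at 95.7, 46.8 and 36.2 CPM with vehicle, so that the 2 groups had nearly the same mean (59.6 and 59.6 CPM) with SDs of 5.38 and 31.7 CPM. It was at 22.8 to 37.0 CPM in the 6 libraries with ruxolitinib, all below WT, and fell 2.12-fold from WT to ruxolitinib (log2 -1.08 ± 0.31 (SE), adjusted p = 0.0208).

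The guanylate-binding proteins are large GTPases that act beside the IRG proteins, and of the 4 followed here Gbp3 (chr3:142560026-142573209, plus strand) had the smallest adjusted p between vehicle and WT. It was at 57.7, 53.7 and 60.0 CPM in WT, at 236, 106 and 223 CPM with vehicle, at 386, 165 and 250.4 CPM with AG221, at 163, 119 and 119.6 CPM with ruxolitinib and at 73.4, 70.9 and 128 CPM with combined therapy. Every mutant library was above every WT library. The gene was 3.3-fold higher with vehicle than in WT (log2 1.72 ± 0.35 (SE), adjusted p = 0.00519), and it was 2.34-fold higher than in WT with ruxolitinib (adjusted p = 0.0182; 0.0507 without ruxolitinib A14 and 0.0715 without WT B30). With combined therapy it was 1.59-fold above WT (log2 0.67, 95% interval -0.06 to 1.40, adjusted p = 0.232).

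Gbp7 (chr3:142530342-142550149, plus strand) lay within a narrow range in WT, at 137, 132 and 134 CPM. It was at 258, 173 and 163 CPM with vehicle and at 269, 188 and 218 CPM with AG221, against 109, 136 and 114 CPM with ruxolitinib and 99.2, 109 and 116 CPM with combined therapy. It was 1.47-fold higher with vehicle than in WT (adjusted p = 0.0311), a call lost without vehicle A1 (adjusted p = 0.137) or without any 1 WT library (0.0576 to 0.0986), and 1.83-fold lower with combined therapy than with vehicle (adjusted p = 0.00719). Of its exon length, 11.3% is shared with the predicted gene Gm43802. Gbp2 (chr3:142620602-142638008, plus strand) was called in no comparison by edgeR with TMM scaling, the filter on low counts and all libraries. With upper quartile scaling edgeR called it lower with combined therapy than with AG221 (adjusted p = 0.0208). It was then also called lower in the 6 libraries with ruxolitinib than in the 6 mutant libraries without it (0.0369), as it was without the filter (0.042). DESeq2 called it lower with combined therapy than with AG221 (adjusted p = 0.0473), higher with AG221 than with ruxolitinib (0.0448) and lower in the 6 libraries with ruxolitinib than in the 6 mutant libraries without it (0.029), and edgeR called it in all 3 without AG221 A9 (0.0258 to 0.0472). It was at 52.4 to 57.4 CPM in WT, 36.0 to 94.0 CPM with vehicle, 59.6 to 92.4 CPM with AG221, 41.3 to 43.5 CPM with ruxolitinib and 40.5 to 50.2 CPM with combined therapy. Its 6 libraries with ruxolitinib all lay below WT.

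Gbp9 (chr5:105077630-105139539, minus strand) ran the other way against WT. It was at 14.01, 15.6 and 10.5 CPM in WT (312 to 462 counts) and at 6.05, 3.22 and 0.276 CPM with vehicle, where A4 held 7 counts. AG221 libraries were at 3.08, 3.28 and 3.49 CPM, ruxolitinib libraries at 1.04, 2.22 and 0.783 CPM, and combined libraries at 2.45, 0.415 and 0.509 CPM. Every mutant library was below every WT library. The difference from WT was called for AG221 (log2 -2.02 ± 0.78 (SE), adjusted p = 0.0442), ruxolitinib (-3.31 ± 0.83, adjusted p = 0.0125) and combined therapy (-3.60 ± 0.85, adjusted p = 0.039), and for vehicle it was -2.06 ± 0.78 with adjusted p = 0.0558. The ruxolitinib call held in each omission of 1 library. The AG221 call was lost without any 1 of the 6 libraries (adjusted p between 0.059 and 0.115), and that of combined therapy without B25, B26 or any 1 WT library (0.0548 to 0.165). Gbp9 shares 1.16% of its exon length with Gbp4 and Gbp8, and reads of the GBP and IRG genes may be split between similar copies, so these values are uncertain to that extent.

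Irf1 (chr11:53770014-53778374, plus strand), the transcription factor that sustains interferon responses, was called in no comparison. It was at 131, 161 and 164 CPM in WT, at 282, 165 and 142 CPM with vehicle, at 131, 196 and 149 CPM with AG221, at 185, 111 and 121 CPM with ruxolitinib and at 134, 118 and 140.3 CPM with combined therapy. The groups overlapped throughout, apart from combined therapy, whose 3 libraries were all below the 3 vehicle libraries (log2 -0.59, 95% interval -1.13 to -0.04, adjusted p = 0.159).

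Serpina3g (chr12:104236245-104241939, plus strand), which encodes an inhibitor of cathepsin proteases, had the largest fold difference of the 10 genes between vehicle and WT. It was at 279.9, 226 and 322 CPM in WT and at 1412, 1849 and 797 CPM with vehicle. With AG221 it was at 1278, 960.0 and 1384 CPM, with ruxolitinib at 357, 315 and 223 CPM and with combined therapy at 218, 468 and 452 CPM. The 6 vehicle and AG221 libraries were all above the 9 others. The gene was 4.9-fold higher with vehicle than in WT (log2 2.29 ± 0.34 (SE), adjusted p = 0.000968), and this call held in each of 6 other settings and 6 omissions of 1 library. It was 4.53-fold lower with ruxolitinib than with vehicle (log2 -2.18 ± 0.33 (SE), adjusted p = 0.0672) and 3.56-fold lower with combined therapy (adjusted p = 0.00393). Against WT the log2 difference was 0.11 with ruxolitinib (95% interval -0.58 to 0.80) and 0.46 with combined therapy (-0.23 to 1.15). Per kilobase of exon it was the most abundant of the 10 genes in every group, with mean levels of 131 CPM per kb in WT and 643 CPM per kb with vehicle. The next was Irf1 in WT (38.3 CPM per kb) and Igtp with vehicle (59.2 CPM per kb), and Gbp9 was the lowest in both (2.58 and 0.615 CPM per kb).

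The comparison of ruxolitinib with vehicle asks what JAK inhibition alone does to these genes. None of the 10 genes was called by edgeR, which called 3 genes (0.0168%) in the whole table. All 10 log2 fold changes were negative, with a median of -0.98 against 0.01 over all genes, and 6 had an unadjusted p under 0.05 (Iigp1, Serpina3g, Irgm1, Igtp, Gbp7 and Irgm2), against 813 genes or 4.56% of the table. For 5 of them the 3 ruxolitinib libraries were all below the 3 vehicle libraries, against 4.5% of all genes. Iigp1 and Serpina3g were called without vehicle A4 (adjusted p = 0.00992 and 0.013). With DESeq2, which called 0.13% of all genes with at least 1 count, 4 of the 10 were called: Iigp1, Serpina3g, Igtp and Irgm1, with adjusted p between 1.15e-06 and 0.0453.

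Combined therapy was also compared with AG221. These groups differ in ruxolitinib and also in the letter, A for AG221 and B for combined therapy, and the 2 cannot be told apart. Here 7 of the 10 genes fell, all but Gbp2, Gbp9 and Irf1. Of all genes 33.2% were called and 14.3% were called lower. Iigp1 fell 5.39-fold (log2 -2.43 ± 0.42 (SE), adjusted p = 0.0027), Serpina3g 3.18-fold (-1.67 ± 0.33, adjusted p = 0.00374), Igtp 3.06-fold (-1.61 ± 0.29, adjusted p = 0.00299) and Gbp3 2.94-fold (-1.56 ± 0.34, adjusted p = 0.00565). In 9 of the 10 genes the combined libraries were all below the AG221 libraries, against 20.3% of all genes. Irgm2, 1.95-fold lower (adjusted p = 0.0302), lost its call without AG221 A8 or A10 or any 1 combined library (0.0615 to 0.108). Without AG221 A8, AG221 A10 and ruxolitinib A16 none of the 10 was called, 1 AG221 library being left, and the log2 fold changes of the 7 lay between -0.56 and -2.21. In the same contrast 7 of 10 neutrophil markers and 5 of 11 monocyte, macrophage and dendritic cell markers fell, and their part in these values was not tested.

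**Figure D3:**
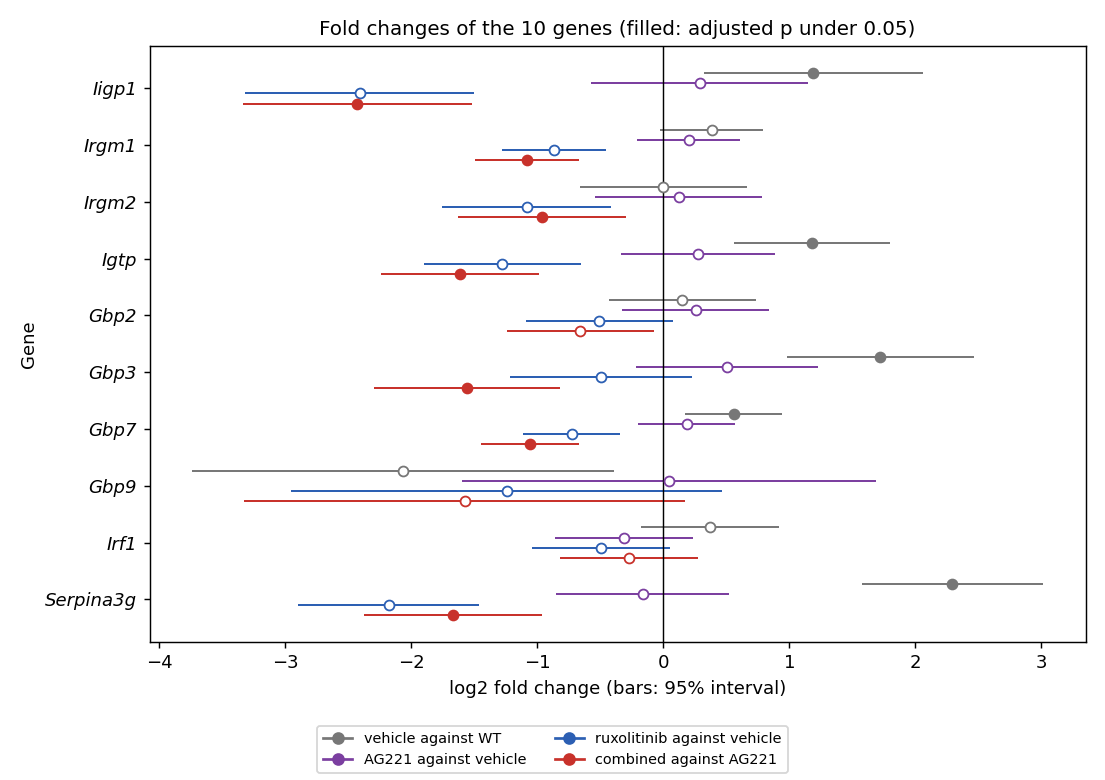
Log2 fold change of each gene with its 95% interval in the comparisons named under the plot, where filled points have an adjusted p under 0.05. All 10 values of ruxolitinib against vehicle and of combined against AG221 are below 0, down to -2.41 and -2.43 for Iigp1.

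A pooled contrast of the 6 libraries with ruxolitinib against the 6 vehicle and AG221 libraries, chosen after the data had been seen, gave 7 genes lower of 10, beside 3.98% of all genes lower and 9.87% called in all. Iigp1 was 5.35-fold lower (log2 -2.42 ± 0.30 (SE), adjusted p = 0.000907), Serpina3g 3.8-fold (adjusted p = 0.00085), Igtp 2.73-fold (0.00267), Irgm1 1.97-fold (0.0025) and Gbp7 1.86-fold (0.00281). For these 5 genes all 6 libraries with ruxolitinib were below the 6 without, which held for 0.824% of all genes, and the calls held in each omission of 1 library. Gbp3 and Irgm2 were each 2.03-fold lower (adjusted p = 0.0287 and 0.0238), with calls lost in 7 and 6 of the 12 omissions. Without AG221 A8, AG221 A10 and ruxolitinib A16, which leaves 1 AG221 library, the log2 values were -0.65 for Gbp3, -0.76 for Irgm2 and -0.83 for Irgm1. Those of Gbp7, Igtp, Iigp1 and Serpina3g were no higher than -0.82 in any of the 5 other settings, this fit included. Of the 4 groups pooled here, combined therapy alone has the letter B. The matching contrast of the 6 libraries with AG221 against the 6 mutant libraries without it called none of the 10 genes and 7.77% of all genes with edgeR, and none of the 10 had an unadjusted p under 0.05, with log2 values from -0.20 (Irf1) to 0.28 (Iigp1).

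For AG221 against vehicle, which asks about inhibition of mutant IDH2 alone, none of the 10 genes was called by edgeR or DESeq2 (by edgeR, 0.987% of all genes were) and none had an unadjusted p under 0.05 (25.2% of all genes did). Without AG221 A9 edgeR called 24.4% of all genes and none of the 10, and without AG221 A8 or A10 it called no gene. Of the fold changes, 8 were positive and 2 negative, and the log2 values lay between -0.31 (Irf1, 95% interval -0.86 to 0.24) and 0.50 (Gbp3, -0.22 to 1.23). The intervals allow a change of up to 1.15 for Iigp1 and 0.88 for Igtp. Among group means AG221 was the highest for 7 of the 10 genes, but without AG221 A8, AG221 A10 and ruxolitinib A16 the fold changes of Gbp2, Gbp3, Gbp7, Irgm1 and Irgm2 turned negative. The sign of these small differences depends on the libraries kept.

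Set against ruxolitinib, AG221 left 5 of the 10 genes higher (Iigp1, Serpina3g, Igtp, Irgm1 and Gbp7), with 2.06% of all genes higher and 3.43% called in all. Iigp1 was 6.48-fold higher (log2 2.70 ± 0.43 (SE), adjusted p = 0.0145) and Serpina3g 4.05-fold (adjusted p = 0.0154). In 9 of the 10 genes the AG221 libraries were all above the ruxolitinib libraries, against 12.2% of all genes. The adjusted p of all 5 rose above 0.05 without AG221 A8, ruxolitinib A14 or ruxolitinib A17 (0.0513 to 0.114), and no gene in the table was called when only these 6 libraries were fitted. The number called was 3 without AG221 A10, where 0.576% of all genes were called, 8 without AG221 A9 (25.1%) and 0 without AG221 A8, AG221 A10 and ruxolitinib A16, where no gene in the table was called. These libraries share the letter A.

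Against vehicle, edgeR called 5 of the 10 genes lower with combined therapy (Iigp1, Serpina3g, Igtp, Irgm1 and Gbp7), where 4.21% of all genes were lower and 12.5% called in all. Gbp3 was 2.07-fold lower (log2 -1.05 ± 0.34 (SE), adjusted p = 0.0595). It was called lower under upper quartile scaling (0.047), without the filter (0.0208), with DESeq2 (0.0279) and in 2 of 6 omissions of 1 library. Without AG221 A8, AG221 A10 and ruxolitinib A16 its log2 fold change was -1.08. The median log2 fold change of the 10 was -0.97, and that of ruxolitinib alone, which shares the vehicle libraries, was -0.98. Higher calls made up 8.28% of all genes, and this comparison crosses the letters A and B. Between combined therapy and ruxolitinib alone none of the 10 genes was called by edgeR or DESeq2, and none had an unadjusted p under 0.05 (edgeR called 12.4% of all genes), with log2 differences from -0.56 (Gbp3, 95% interval -1.28 to 0.17) to 0.35 (Serpina3g, -0.34 to 1.04). The test of combined therapy beyond the sum of both drugs called none of the 10 by edgeR or DESeq2 and, by edgeR, 8.42% of all genes. The largest departure was that of Gbp3, the 1 gene with an unadjusted p under 0.05, at -1.06 ± 0.48 (SE) with an unadjusted p of 0.043 and an adjusted p of 0.144 (0.0397 without AG221 A9).

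Against WT, AG221-treated cells had 6 genes higher and 1 lower, in a comparison in which 50.7% of all genes were called, 22.2% higher and 28.5% lower. Serpina3g was 4.37-fold higher (adjusted p = 0.000457), Gbp3 4.68-fold (0.000482), Iigp1 2.78-fold (0.00987), Igtp 2.74-fold (0.00179), Gbp7 1.67-fold (0.00507) and Irgm1 1.5-fold (0.0222). The Irgm1 call was lost without AG221 A8 or A10 or WT B28 or B30 (0.0513 to 0.0882). With ruxolitinib, 1 gene was higher than in WT (Gbp3) and 3 were lower (Gbp9, Irgm2 and Iigp1), with 32.3% of all genes called, 16.1% higher and 16.2% lower. Iigp1 was 2.33-fold below WT (adjusted p = 0.037), and its call was lost without any 1 of the 6 libraries (0.0633 to 0.116), as was that of Irgm2 without any 1 of them except ruxolitinib A14 (0.0514 to 0.0825). Leaving out any 1 of the 6 libraries left 1 or 2 calls, where 10.6% to 27.1% of all genes were called. Without AG221 A8, AG221 A10 and ruxolitinib A16, the log2 difference of ruxolitinib from WT was -1.25 for Iigp1 and -0.95 for Irgm2. That of AG221, with 1 library left, was 1.23 for Iigp1, 1.18 for Igtp, 0.47 for Gbp7, 0.26 for Irgm1 and -2.02 for Gbp9. For Gbp3 and Serpina3g with AG221 it was no lower than 1.52 and 1.79 in any of 6 other settings. With combined therapy 1 gene, Gbp9, was called lower, beside 1.61% of all genes called lower and 3.25% in all. Iigp1, Irgm1 and Irgm2 were lower with unadjusted p of 0.0345, 0.0206 and 0.0172, so that 4 of the 10 had an unadjusted p under 0.05, against 25.4% of all genes. This comparison lies within the letter B.

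For these 10 genes the vehicle libraries differed more among themselves than those of any other group. The within-group SD of log2 CPM was above the median of all genes in 10 of 10 genes for vehicle, where its median was 0.67 against 0.31 over all genes, and in 1 to 4 of the 10 genes for the other groups. Vehicle A1 was the highest of its group in 9 genes, all but Serpina3g, and A4 was the lowest in 7. Ly6a followed the same order, at 166, 71.9 and 13.1 CPM in A1, A3 and A4, against 59.9 to 81.0 CPM in WT, 109 to 148 CPM with AG221 and 42.9 to 60.1 CPM in the 6 libraries with ruxolitinib. Its part in the spread was not tested. By group means, neighbours in the order of levels were told apart in 5 of 40 steps: vehicle above WT for Gbp7, Igtp and Iigp1, WT above AG221 for Gbp9, and AG221 above combined for Serpina3g.

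**Figure D4:**
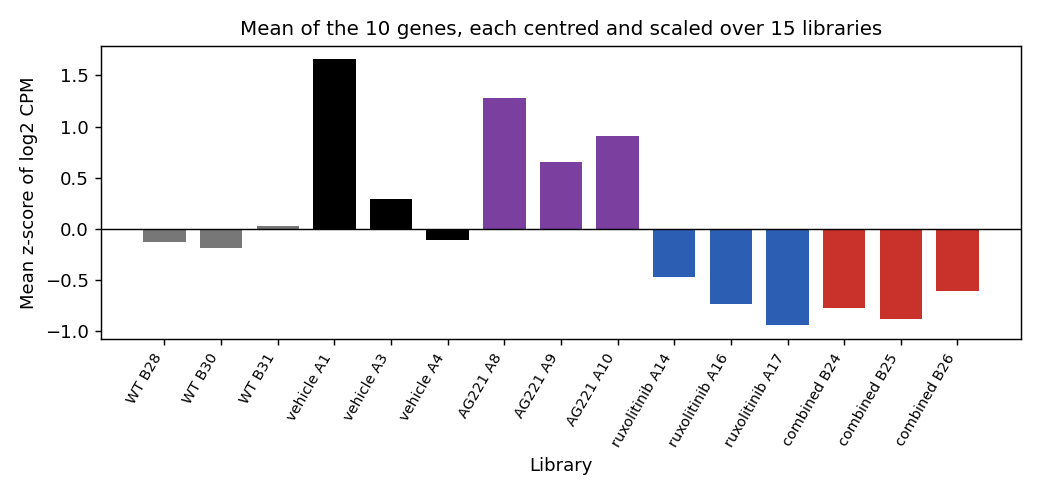
Mean over the 10 genes of each gene's log2 CPM, centred and scaled to SD 1 over the 15 libraries (bars, 1 per library, coloured by group). Vehicle A1 stands highest at 1.66 and A4 at -0.11, and the 6 libraries with ruxolitinib lie between -0.47 and -0.94.

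As a description over 15 libraries, which share treatment groups and depth, the pairs of the 10 genes correlated with a median Pearson r of 0.64 (45 pairs, -0.32 to 0.96), and 0.53 after the group means were removed. Iigp1 was closest to the mean of the other 9 genes (r = 0.98), followed by Gbp7, Igtp and Irgm1 (0.94, 0.94 and 0.93), while Gbp9 (0.32), Gbp3 (0.54) and Irf1 (0.57) were least like them. Serpina3g stood at 0.74, and at 0.31 after the group means were removed. The 9 other genes of the table whose log2 CPM was most like the mean profile were Gm12185 (r = 0.98), Gvin1 (0.97), Gm4951 (0.96), Tgtp2, Tgtp1, Gm4070 and Parp9 (all 0.95), and Gm12250 and Gm8995 (both 0.93). Their r within groups was 0.84 to 0.93. Tgtp1 and Tgtp2 encode near-identical IRG proteins, Gm12185 overlaps Tgtp1 in position, and Gvin1, Gm4070 and Gm8995 lie near each other on chromosome 7 as similar copies, so reads may be split between them.

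The ligand gene itself was barely seen. Ifng was at 0 to 4 counts in every library, too few to test, and no level of it can be compared at this depth. Of the receptor genes, Ifngr1 rose in vehicle-treated cells against WT (206 to 250 CPM in WT, 331 to 445 CPM with vehicle, log2 0.84 ± 0.15 (SE), adjusted p = 0.00293). Ifngr2 was at 27.3 to 34.6 CPM in WT, 10.6 to 21.5 CPM with vehicle and 37.0 to 47.3 CPM with combined therapy, and was called in none of these. It rose from AG221 to combined therapy (log2 1.90 ± 0.48 (SE), adjusted p = 0.0102).

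Of the kinase genes, Jak2 was at 27.1 to 38.4 CPM in WT and 20.1 to 24.1 CPM with vehicle (log2 -0.57 ± 0.16 (SE), adjusted p = 0.0201), and it was highest with combined therapy, at 40.7 to 52.9 CPM (1.09 ± 0.16 against vehicle, adjusted p = 0.0021). Jak1 rose from AG221 to combined therapy (1.75 ± 0.35, adjusted p = 0.00375). Of the 13 ligand, receptor and signalling genes, 12 were tested, with 3 higher and 1 lower with vehicle than in WT (15.4% and 17.9% of all genes) and 1 higher and 3 lower with combined therapy than with vehicle (8.28% and 4.21%). Nlrc5, the activator of MHC class I genes, was higher with vehicle than in WT (log2 1.02 ± 0.22, adjusted p = 0.00675) and lower with combined therapy than with vehicle (-1.45 ± 0.22, adjusted p = 0.00229).

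The feedback inhibitors split. Socs1, a JAK inhibitor and an interferon-gamma target, was at 2.18 to 7.28 CPM in WT and 0.489 to 1.08 CPM with vehicle (log2 -2.25 ± 0.73 (SE), adjusted p = 0.0331), while Socs3 was at 5.73 to 7.65 CPM in WT and 17.8 to 54.7 CPM with vehicle (2.17 ± 0.79, adjusted p = 0.0491). Of the 8 genes of this list, 2 were higher and 1 lower with vehicle than in WT, where 15.4% and 17.9% of all genes were, Ptpn2, a phosphatase of JAK and STAT proteins, being the other higher one (0.57 ± 0.14, adjusted p = 0.011). EdgeR called none with ruxolitinib alone, where 1 had an unadjusted p under 0.05 (4.56% of all genes did), and 1, Usp18, was lower with combined therapy (-0.92 ± 0.21, adjusted p = 0.0117), as were 4.21% of all genes.

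Of 16 other genes of the GBP and IRG families, 14 were tested, with 2 higher and 4 lower with vehicle than in WT, beside 15.4% and 17.9% of all genes. Ifi47, an IRG gene, was higher (161 to 203 CPM in WT, 267 to 409 CPM with vehicle, log2 0.92 ± 0.17 (SE), adjusted p = 0.00373), while Gbp11 was at 11 to 17 counts in WT and 0 counts in all 3 vehicle libraries, and Irgq was lower (-1.64 ± 0.39, adjusted p = 0.00992). Against vehicle, edgeR called none with AG221 or ruxolitinib alone, where 1 and 8 had an unadjusted p under 0.05, beside 25.2% and 4.56% of all genes. With combined therapy against vehicle 6 were lower (4.21% of all genes), among them Gvin1 (-2.06 ± 0.39, adjusted p = 0.00485) and Tgtp2 (207, 78.7 and 115 CPM with vehicle, 42.5 to 52.5 CPM combined, -1.48 ± 0.30, adjusted p = 0.00663), and 1 was higher (8.28% of all genes), Irgq (2.17 ± 0.39, adjusted p = 0.00418). The median of the 14 was -1.23 with ruxolitinib and -1.04 with combined therapy against vehicle.

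Among 17 other interferon-gamma targets, 6 were called higher and none lower by edgeR with vehicle than in WT, beside 15.4% and 17.9% of all genes. Cxcl10, a chemokine gene, was at 1.09 to 3.12 CPM in WT, 13.7 to 29.7 CPM with vehicle, 8.13 to 12.95 CPM with ruxolitinib and 0.209 to 1.25 CPM with combined therapy (vehicle against WT 3.09 ± 0.55, adjusted p = 0.00335; combined against vehicle -4.76 ± 0.62, adjusted p = 0.000849). Serpina3f, the neighbour of Serpina3g, was at 4.93 to 12.1 CPM in WT, 76.6, 107 and 20.4 CPM with vehicle, 52.2 to 74.4 CPM with AG221 and 4.17 to 17.99 CPM in the 6 libraries with ruxolitinib (vehicle against WT 2.87 ± 0.64, adjusted p = 0.00761; combined against vehicle -2.87 ± 0.64, adjusted p = 0.0102). As with Serpina3g, vehicle A3 was the highest and A4 the lowest of the vehicle libraries. Psme2, a proteasome activator subunit, was also higher with vehicle than in WT (0.71 ± 0.19, adjusted p = 0.0167), and Parp14 was lower with combined therapy than with vehicle (-0.89 ± 0.26, adjusted p = 0.0373). With combined therapy 3 of the 17 were lower and none higher than with vehicle (4.21% and 8.28% of all genes), and with ruxolitinib alone edgeR called none, while 2 had an unadjusted p under 0.05 (4.56% of all genes did). Of 10 other Serpina3 genes, Serpina3f included, 3 were tested, with 1 higher with vehicle than in WT and 2 lower with combined therapy than with vehicle.

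The type I interferon targets parted from these genes in the comparison with WT. Of 18, edgeR called none higher and 7 lower with vehicle than in WT (15.4% and 17.9% of all genes), with a median log2 fold change of -0.50, against 0.47 for the 10 genes here. The lowest p among them were those of Ifi44 (-1.81 ± 0.39, adjusted p = 0.00655), Ifit3 (-1.61 ± 0.34, adjusted p = 0.00666) and Mx1 (-1.59 ± 0.44, adjusted p = 0.0182). Rtp4 was at 44.9 to 63.9 CPM in WT, 17.2 to 45.3 CPM with vehicle, 4.57 to 6.94 CPM with ruxolitinib and 6.71 to 8.14 CPM with combined therapy. Rtp4 and Irf7, the transcription factor that amplifies type I interferon, were 2 of the 3 genes called in the whole table for ruxolitinib against vehicle (-2.31 ± 0.32 and -1.84 ± 0.23, adjusted p = 0.0263 for both). In that comparison 17 of the 18 fold changes were negative, and by edgeR 14 had an unadjusted p under 0.05 (4.56% of all genes did). For 12 the ruxolitinib libraries were all below the vehicle libraries, against 4.5% of all genes. The median log2 fold change was -1.13, against -0.98 for the 10 genes here. With combined therapy 11 of the 18 were lower than with vehicle (4.21% of all genes) and 13 lower than in WT (1.61%). The difference between the lists was not tested.

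Lists of cell type markers moved with some of these contrasts. The 10 neutrophil markers summed to 3274 to 3637 CPM in WT, 7324 to 12107 CPM with vehicle, 16074 to 18839 CPM with AG221, 11508 to 18398 CPM with ruxolitinib and 3971 to 7051 CPM with combined therapy, and 7 of the 10 fell from AG221 to combined therapy. The 11 monocyte, macrophage and dendritic cell markers summed to 201 to 278, 771 to 810, 1349 to 2105, 666 to 1182 and 393 to 791 CPM in the same order. In neither list was a marker at 0 in all 3 libraries of a group. Between vehicle and ruxolitinib the neutrophil list ran opposite to the 10 genes: all 10 of its fold changes were positive, none called. It was also opposite for ruxolitinib against WT, where all 10 markers were positive and 8 of the 10 genes negative. In several other contrasts it ran with most of them. All 10 markers were positive for AG221 against vehicle (none called, 0.987% of all genes called), as were 8 of the 10 genes. All 10 markers were negative for combined therapy against AG221 (7 called, 14.3% of all genes lower), as were all 10 genes. All 10 markers were positive for vehicle against WT (4 called, 15.4% of all genes higher), as were 8 of the 10 genes. All 10 were negative for combined therapy against vehicle (1 called, 4.21% of all genes lower), as were all 10 genes. The 15 T and NK cell markers summed to 168 to 229 CPM in WT and 382 to 807 CPM in the mutant libraries, nearly all of it Nkg7 and Gzmb. The other 13, Cd3e and Ncr1 among them, summed to 11.97 to 15.2 CPM in WT and 1.54 to 9.74 CPM in the mutant libraries. B and plasma cell markers summed to 654 to 1355 CPM in WT and 90.9 to 257 CPM in the mutant libraries, megakaryocyte markers to 257 to 349 CPM and 373 to 968 CPM, and erythroid markers to 119 to 154 CPM and 207 to 1652 CPM. The part of these cell types in the results was not tested.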

How the data were processed

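RNA was TRIzol-extracted, amplified with the SMARTer kit and sequenced as paired 50-base reads. The authors aligned the reads with STAR 2.5.1a to mm10 and deposited 1 table of raw read counts per Ensembl gene. Their processing notes name DESeq2 1.6.3, and whether counting used strand is not given in the sources used here. Groups came from the sample labels. The counts of all 15 libraries were fitted together with 5 group means by edgeR 4.0.16 (R 4.3.3, limma 3.58.1): TMM scaling, filterByExpr, quasi-likelihood F tests and Benjamini-Hochberg adjustment over all 17834 genes tested, with a gene called at adjusted p under 0.05. Levels are CPM on TMM-scaled totals, and 2 counts were added as prior for their log2 values. Fold changes carry SEs and 95% intervals from the same fit. The fit was tested on simulated counts.

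Alternatives were RLE or upper quartile scaling, no filter beyond 1 count, only the groups compared, DESeq2 1.42.0, and omission of each library. The genes and lists were chosen with earlier results of these data known. All 10 genes were named. Of each other list, the 3 called genes with the smallest p were named in comparisons against vehicle or WT, with Jak1, Jak2, Ifng, its receptors, Socs1, Socs3 and Ly6a throughout, and the 10 genes of highest Pearson r with the mean profile, except that 1 gene named by this rule is not reported here. Depth was 18836625 to 32174287 counts, and intervals of levels reflect 3 libraries per group.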

Additional observations from a re-analysis of the deposited data

How the results depend on the processing

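Of 512 fold changes of the 10 genes recomputed under other settings, 444 kept their direction and their side of the threshold, 31 lost and 27 gained a call and 10 changed sign. With 1 library left out the numbers were 484, 73, 16 and 15 of 588. The number of the 10 genes called for vehicle against WT was 3 under upper quartile scaling (27.4% of all genes called) and 3 when only those groups were fitted (38.6%). It was 6 without the filter (20.7%) and with DESeq2 (20.6%), Gbp9 (lower) being the added gene in both. Shares without the filter and with DESeq2 are over the 37904 genes with at least 1 count. For ruxolitinib against vehicle it was 2 without the filter (0.045% of all genes) and 4 with DESeq2 (0.13%). It was 4 for combined therapy against WT when only those groups were fitted (10.6% of all genes). For AG221 against ruxolitinib it was 0 in such a fit (0%) and 8 with DESeq2 (6.21%). The fit without AG221 A8, AG221 A10 and ruxolitinib A16, a choice made after seeing the data, leaves 1 AG221 library. In it fewer of the 10 genes, and a smaller share of all genes, were called for AG221 or ruxolitinib against WT. The same held for combined against AG221, AG221 against ruxolitinib and the pooled libraries with ruxolitinib against those without. For combined against vehicle the reverse held. With 1 library left out, the number of the 10 genes called ranged as follows, with the share of all genes called in parentheses. For vehicle against WT it was 2 to 6 (10.5% to 30.9%), for ruxolitinib against vehicle 0 to 2 (0% to 0.047%) and for combined against vehicle 4 to 6 (5.26% to 10.3%). Against WT it was 5 to 6 for AG221 (33.9% to 56.4%), 1 to 2 for ruxolitinib (10.6% to 27.1%) and 0 to 1 for combined (0.46% to 2.22%). It was 6 to 8 for combined against AG221 (15.7% to 42.6%) and 0 to 8 for AG221 against ruxolitinib (0% to 25.1%). It was 0 to 1 for combined therapy beyond the sum of both drugs (0.23% to 31.8%) and 5 to 9 for the pooled libraries with ruxolitinib against those without (0.905% to 30.7%). Fits of fewer libraries or fewer groups have fewer residual degrees of freedom, and the cause of the changes was not tested for any setting.

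The changes of sign were these. The vehicle against WT log2 fold change of Irgm2 was 0.016 with RLE scaling, 0.041 without the filter, 0.023 with DESeq2 and 0.0011 without the 3 libraries, and -0.50 to 0.28 with 1 library left out, where that of Gbp2 was -0.29 to 0.44. The AG221 against vehicle value of Serpina3g was 0.036 under upper quartile scaling, which moved the median of all genes in that comparison from -0.01 to 0.18. Without the 3 libraries the AG221 against vehicle values were -0.034 for Gbp2, -0.21 for Gbp3, -0.094 for Gbp7, -0.13 for Irgm1 and -0.30 for Irgm2. With 1 library left out they ranged from -0.015 to 0.72 for Gbp2, -0.50 to 0.89 for Gbp9, -0.00029 to 0.44 for Irgm1, -0.14 to 0.64 for Irgm2, -0.10 to 1.15 for Iigp1, -0.50 to 0.039 for Irf1 and -0.44 to 0.12 for Serpina3g. The combined against vehicle value of Gbp2 ranged from -0.67 to 0.061. No paired analysis was possible because the groups compared share no replicate number in the labels. Gbp9 rests on 7 to 462 counts per library, and its fold changes carry the widest intervals of the 10 genes.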
